A study of Mus musculus with 15 samples.

Results

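To follow mast cells in Tsc2-deficient tumors, a set of 10 mast cell genes (TPSB2, TPSAB1, CPA3, CMA1, MCPT4, KIT, MS4A2, FCER1A, HDC and GATA2) was examined in RNA sequencing of bulk tumors and of sorted tumor cells. The set was chosen because TPSB2 and CPA3 were present in control bulk tumors and nearly absent from bulk tumors with B7-H3 shRNA, so that difference describes how the genes were picked and is given without a test. Of the 10 genes, 10 were found among the 24891 genes of the deposited table, which writes mouse symbols in capitals. Every library came from subcutaneous tumors of 105K cells, a Tsc2-deficient mouse renal tumor line, grown with Matrigel in young male wild-type C57BL/6J mice with an intact immune system. The cells stably expressed a non-targeting control hairpin, sh-NC, or 1 of 2 hairpins aimed at B7-H3, numbered (1) and (2). The 15 libraries formed 5 groups of 3. The bulk material carried sh-NC or hairpin (1), written sh-B7-H3 (1), and the sorted material carried sh-NC or either of the B7-H3 hairpins. Sorted cells were the unlabeled fraction left after dissociation and magnetic removal of non-tumor cells, so they could still hold host cells that escaped the beads. Only the injected tumor cells carried a hairpin, and the host's mast cells did not.

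Mast cells are tissue-resident immune cells of skin, gut and other barrier tissues that store proteases, histamine and heparin in granules. They release these when IgE bound to the high-affinity receptor FcεRI meets antigen. Their growth and survival depend on the receptor tyrosine kinase KIT and its ligand, stem cell factor, and their identity on GATA2. In mice, connective tissue mast cells carry the chymases MCPT4 and CMA1 (mouse MCPT5), the tryptases TPSB2 (MCPT6) and TPSAB1 (MCPT7) and the carboxypeptidase CPA3, whereas mucosal mast cells carry MCPT1 and MCPT2.

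The members lie at scattered places in mm10. The tryptases TPSB2 (chr17:25366305-25369098, plus strand) and TPSAB1 (chr17:25343245-25345562, minus strand) are neighbors, and the chymases CMA1 (chr14:55941451-55944675) and MCPT4 (chr14:56059629-56062313) lie in another protease cluster, both on the minus strand. CPA3 (chr3:20215620-20242181), FCER1A (chr1:173221284-173227214), MS4A2 (chr19:11615523-11623719) and HDC (chr2:126593667-126619299) are also on the minus strand, and KIT (chr5:75574916-75656722) and GATA2 (chr6:88193891-88207032) on the plus strand. These are whole protein-coding genes, exons, introns and UTRs included. The reads had 75 cycles, and no 75-base stretch of the annotated TPSB2, TPSAB1, CPA3, FCER1A, KIT, HDC or GATA2 transcripts occurred in another gene. Such stretches made up 1.67% of CMA1 (shared with Gm48934), 2.51% of MCPT4 (shared with Cma2) and 1.22% of MS4A2 (shared with Ms4a4b), so nearly all of each gene could be told from its relatives. Over their aligned bases, the TPSB2 and TPSAB1 transcripts were 73.96% identical and those of CMA1 and MCPT4 69.33% identical.

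Upstream sequence is printed for the 4 members that moved with TPSB2 and have a RefSeq promoter entry, and for MS4A2, the member that departed furthest from them, so that the windows can be compared. Each run holds the 250 bases before the start site from the RefSeq tables of GRCm38.p6, read 5′ to 3′ on the gene's own minus strand. Capitals mark a GATA motif on either strand, the letters that GATA factors such as GATA2 recognize, searched as AGATAA or as AGATAG, with TGATAA or with TGATAG as the other spellings.
CPA3, chr3:20242182-20242431: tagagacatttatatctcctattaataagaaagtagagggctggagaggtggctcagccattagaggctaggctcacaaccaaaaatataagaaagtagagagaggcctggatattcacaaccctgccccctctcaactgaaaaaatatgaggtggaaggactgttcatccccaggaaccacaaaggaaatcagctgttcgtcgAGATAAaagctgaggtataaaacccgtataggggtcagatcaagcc
CMA1, chr14:55944676-55944925: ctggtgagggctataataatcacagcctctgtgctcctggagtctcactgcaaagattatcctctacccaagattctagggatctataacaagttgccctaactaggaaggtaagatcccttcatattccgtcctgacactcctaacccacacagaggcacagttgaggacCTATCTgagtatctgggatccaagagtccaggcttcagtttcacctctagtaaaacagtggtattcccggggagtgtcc
MCPT4, chr14:56062311-56062560: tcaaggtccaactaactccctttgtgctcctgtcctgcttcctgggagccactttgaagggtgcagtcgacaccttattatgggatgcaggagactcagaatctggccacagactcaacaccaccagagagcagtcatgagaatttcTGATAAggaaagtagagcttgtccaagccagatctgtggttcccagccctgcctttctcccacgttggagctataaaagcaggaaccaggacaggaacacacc
FCER1A, chr1:173227230-173227479: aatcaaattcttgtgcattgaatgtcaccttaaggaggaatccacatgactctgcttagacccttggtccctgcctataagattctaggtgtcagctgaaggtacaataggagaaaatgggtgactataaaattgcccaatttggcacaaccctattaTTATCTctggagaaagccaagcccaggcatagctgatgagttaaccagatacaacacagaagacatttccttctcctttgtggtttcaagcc
MS4A2, chr19:11623720-11623969: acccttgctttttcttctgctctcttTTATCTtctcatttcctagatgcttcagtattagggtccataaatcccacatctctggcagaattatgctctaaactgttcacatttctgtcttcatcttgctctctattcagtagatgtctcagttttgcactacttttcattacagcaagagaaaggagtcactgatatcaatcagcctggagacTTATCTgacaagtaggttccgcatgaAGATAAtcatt
The motif began 46 bases before the start in CPA3, 79 in CMA1, 103 in MCPT4 and 92 in FCER1A. MS4A2 held 3 copies, at 224, 37 and 11 bases before its start. HDC held a copy 221 bases upstream, and the windows of KIT and GATA2 held none. Of the 8 members with an entry, 6 therefore held the motif, against 26.5% of all 32851 windows of the same length. TPSB2 and TPSAB1 had no entry. Distances count from the RefSeq start, which can differ from the gene positions given above. No annotated FCER1A transcript held the first bases after its window. The HDC window, chr2:126618679-126618928, lay inside the span given for HDC. A match describes letters and not a bound site.

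Some facts about the libraries bear on every value. CD276, the gene of B7-H3, was not called lower in any of the 3 comparisons with sh-NC. Its level was 22.5 ± 1.52 scaled FPKM (FPKM, fragments per kilobase of transcript per 1e6 fragments, rescaled with median-ratio factors, with SD and n = 3 here and elsewhere) in bulk sh-NC and 21.5 ± 3.36 in the bulk libraries labelled sh-B7-H3 (1), a log2 difference of −0.07 (95% interval −0.38 to 0.23, adjusted p = 0.709, limma). In sorted cells it was 23.8 ± 8.97 with sh-NC, 10.9 ± 3.37 with sh-B7-H3 (1) and 24.8 ± 1.30 with sh-B7-H3 (2), differences from sh-NC of −1.04 (adjusted p = 0.0547, limma) and 0.12 (adjusted p = 0.775, limma). Sorted sh-B7-H3 (1) was also below sorted sh-B7-H3 (2), by 1.16 on the log2 scale (adjusted p = 0.0277, limma), a call lost in 4 of 11 alternative settings (adjusted p up to 0.109, limma). Lower CD276 RNA was therefore not seen in the bulk libraries or in the sorted libraries labelled sh-B7-H3 (2), and every direction given here is between labels. The first sorted library labelled sh-B7-H3 (2) held RNA of host cells. The sum of 10 leukocyte markers was 229.7 scaled FPKM there, and 4.64 to 14.01 across the remaining 8 sorted libraries. Macrophage markers gave 788.4 and 36.4 to 98.3, and endothelial markers 27.2 and 0.61 to 1.88. A single short noncoding RNA gene, MIR6236, took between 6.01% and 79.7% of the summed FPKM of a library, and relative depth ranged from 0.468 to 1 of the deepest library.

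In bulk tumors, the granule proteases and the IgE-binding receptor chain of mast cells were present in all 3 sh-NC libraries and at 0.549 scaled FPKM or less in the 3 libraries labelled sh-B7-H3 (1). TPSB2, a tryptase that forms active tetramers with heparin, read 2.97, 3.54 and 5.77 scaled FPKM in the sh-NC libraries and 0.0494, 0.3995 and 0 in the sh-B7-H3 (1) libraries. In steps of the value a single fragment would give, these were about 74, 77 and 109 against 1, 9 and 0. Only small values were matched to whole steps, within 0.1 of a step, and the 3 sh-NC figures are rounded without that check. The means were 4.095 ± 1.48 and 0.150 ± 0.218, a fall of 2.13 on the log2(scaled FPKM + 1) scale (SE 0.23).

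CPA3, the carboxypeptidase stored with the chymases, which degrades peptides and venom toxins, read 1.505, 1.63 and 2.21 with sh-NC and 0.0349, 0.188 and 0 with sh-B7-H3 (1). That corresponds to 53, 50 and 59 steps against 1, 6 and 0, and to a log2 difference of −1.37 (SE 0.14). Every sh-NC library was above every sh-B7-H3 (1) library for both genes, as the choice of the set required. Because the log2 scale carries a pseudocount of 1, it understates changes of genes this low, and with a pseudocount of 0.1 the differences were −4.37 for TPSB2 and −3.56 for CPA3.

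CMA1, the α-chymase of mouse connective tissue mast cells, followed the same pattern with 1.72, 2.25 and 3.33 scaled FPKM in sh-NC and 0.0493, 0.310 and 0.0631 in sh-B7-H3 (1), a log2 difference of −1.57 (SE 0.19). MCPT4, the chymase of connective tissue mast cells closest in activity to human chymase, read 1.83, 1.40 and 3.96 against 0.278, 0.549 and 0, a difference of −1.36 (SE 0.29). FCER1A, the IgE-binding α chain of FcεRI, read 0.389, 0.495 and 0.342 against 0 in all 3 sh-B7-H3 (1) libraries. Its 9, 10 and 6 steps in sh-NC show how few fragments stand behind that value, and it was too low to enter the fit. The groups did not overlap for any of these 5 members, and their levels summed to 8.42 to 15.6 in sh-NC and 0.0631 to 1.45 in sh-B7-H3 (1). In this comparison 8.52% of the 11800 genes tested were lower, 12.8% higher and 21.4% changed in either direction, 1515 genes up and 1005 down, against 675 and 286 on FPKM as deposited. Since the contrast chose the set, its members are given no p. In bulk tissue, fewer mast cells and less of these RNAs per mast cell cannot be told apart.

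**Figure D1:**
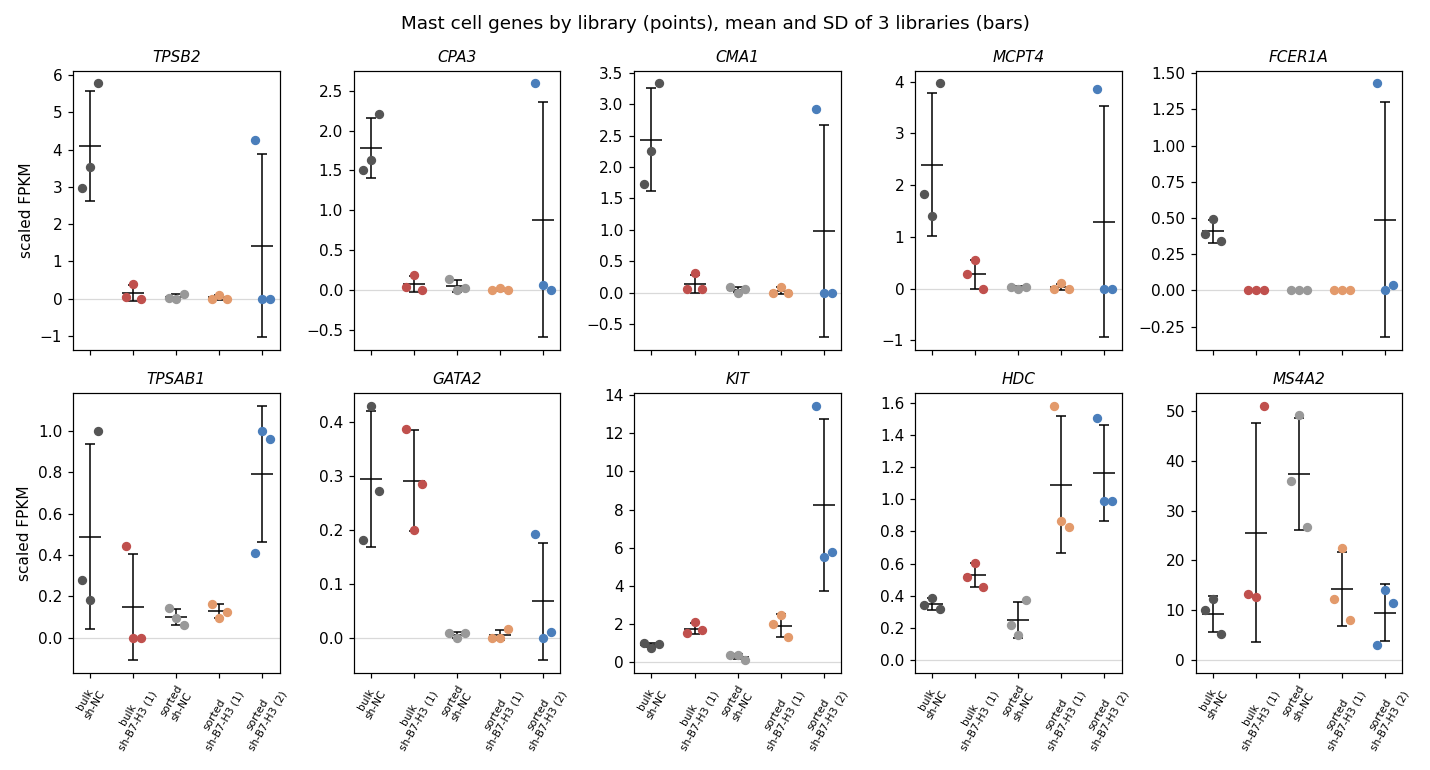
Scaled FPKM (y axes, linear, each gene on its own scale) of the 10 mast cell genes in the 15 libraries, grouped along x by material and shRNA. Points are libraries in replicate order and black bars are the mean and SD of 3 libraries. TPSB2, CPA3, CMA1, MCPT4 and FCER1A are high in bulk sh-NC and in a single sorted sh-B7-H3 (2) library, while the lower row shows other patterns.

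The other 5 members had other patterns. GATA2, the transcription factor that mast cells and other blood and endothelial cells need, read 0.181, 0.429 and 0.271 in bulk sh-NC and 0.386, 0.200 and 0.285 in bulk sh-B7-H3 (1), so the groups overlapped. Their means were 0.294 ± 0.125 and 0.291 ± 0.0932. TPSAB1, a tryptase whose protein C57BL/6 mice lack because of a splice-site mutation, also overlapped, at 0.280, 0.183 and 1.00 against 0.442, 0 and 0. KIT, the receptor for stem cell factor, was higher in every sh-B7-H3 (1) library, at 1.53, 2.09 and 1.66 against 0.989, 0.768 and 0.960, a log2 difference of 0.53 (SE 0.12). HDC, which makes histamine from histidine, was also higher without overlap, at 0.516, 0.607 and 0.457 against 0.339, 0.388 and 0.319. MS4A2, the β chain that amplifies FcεRI signals, read 13.2, 12.5 and 51.1 against 10.1, 12.3 and 5.16, a difference of 1.15 (SE 0.55), or 0.52 without the third sh-B7-H3 (1) library. On FPKM as deposited, the MS4A2 groups overlapped. By scaled FPKM, 5 members were thus lower, 3 higher and 2 overlapping. Of 18277 genes with any value, 14.8% were lower and 21.6% higher without overlap. The contrast chose the set, and nothing is read from this split. In bulk sh-B7-H3 (1) the β chain of FcεRI was the most abundant member at 25.6 ± 22.0 while its α chain was listed at 0.

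Bulk tumor and sorted cells, both with sh-NC, were compared next, to see which members were found in the sorted fraction. TPSB2 read 0.0286, 0 and 0.124 in the sorted libraries and CPA3 0.141, 0 and 0.0220, which put bulk above sorted by 2.24 and 1.39 on the log2 scale, given as description since these genes chose the set. CMA1 was above sorted cells in bulk by 1.68 and MCPT4 by 1.66 on the same scale. Both passed the filter on low values only through the bulk libraries, where they are high. Across the 15 libraries they followed TPSB2, which helped choose the set (r = 0.998 and 0.973), so they too are given without p. In the fit with the filter, 10.4% of 11418 genes were higher, 6.48% lower and 16.9% changed (1184 up and 740 down, against 520 and 132 on FPKM as deposited). All tests of this comparison use the bulk sh-NC libraries that also chose TPSB2 and CPA3. FCER1A was listed at 0 in all 3 sorted sh-NC libraries, and GATA2 was between 0 and 0.00934 there. In the same fit without the filter, the bulk libraries were higher for FCER1A by 0.49 (adjusted p = 0.00107, limma), for GATA2 by 0.36 (adjusted p = 0.0225, limma) and for KIT by 0.57 (adjusted p = 0.0158, limma). MS4A2 went the other way and was lower in bulk by 1.94 on the log2 scale (SE 0.32, adjusted p = 0.00608, limma), with sorted cells at 35.9, 49.2 and 26.8 scaled FPKM. That call was lost without the first bulk sh-NC library (adjusted p = 0.0544, limma). Taken by values alone, 8 members were above, 1 below and 1 overlapping, beside 20.8% above and 12.4% below without overlap among all genes with any value. For the same libraries, leukocyte markers summed to 210.7 to 300.9 in bulk and 4.64 to 7.84 in sorted cells. Macrophage markers summed to 884.6 to 1533 and 36.4 to 50.3. Non-tumor cells had been removed from the sorted fraction, and markers such as PTPRC passed the filter only through bulk, so no count of calls is given.

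Among the sorted libraries, the 4 proteases and FCER1A stood above trace levels in a single library, the one with the leukocyte RNA. In the first library labelled sh-B7-H3 (2), TPSB2 read 4.26, CPA3 2.59, CMA1 2.92, MCPT4 3.86 and FCER1A 1.43 scaled FPKM. Across the other 8 sorted libraries, the highest values were 0.124, 0.141, 0.0959, 0.108 and 0.0401, and TPSB2, CMA1 and MCPT4 were listed at 0 in 5 of the 8 each. GATA2 showed the same split, at 0.193 against at most 0.0167. Because of this library, the group means of sorted sh-B7-H3 (2) (1.42 ± 2.46 for TPSB2) describe no library in it. Summed over the 5 members, that library reached 15.1 scaled FPKM, within the 8.42 to 15.6 of bulk sh-NC. Relative to PTPRC, the CD45 gene of all leukocytes, TPSB2 stood at 35.4% there, at 54.3%, 67.2% and 90.7% in bulk sh-NC, and at 0.489%, 3.61% and 0% in bulk sh-B7-H3 (1). PTPRC itself read 5.27 to 6.36 in bulk sh-NC and 5.03 to 11.1 in bulk sh-B7-H3 (1), a difference that was not called (log2 difference 0.48, SE 0.26, adjusted p = 0.209, limma).

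**Figure D2:**
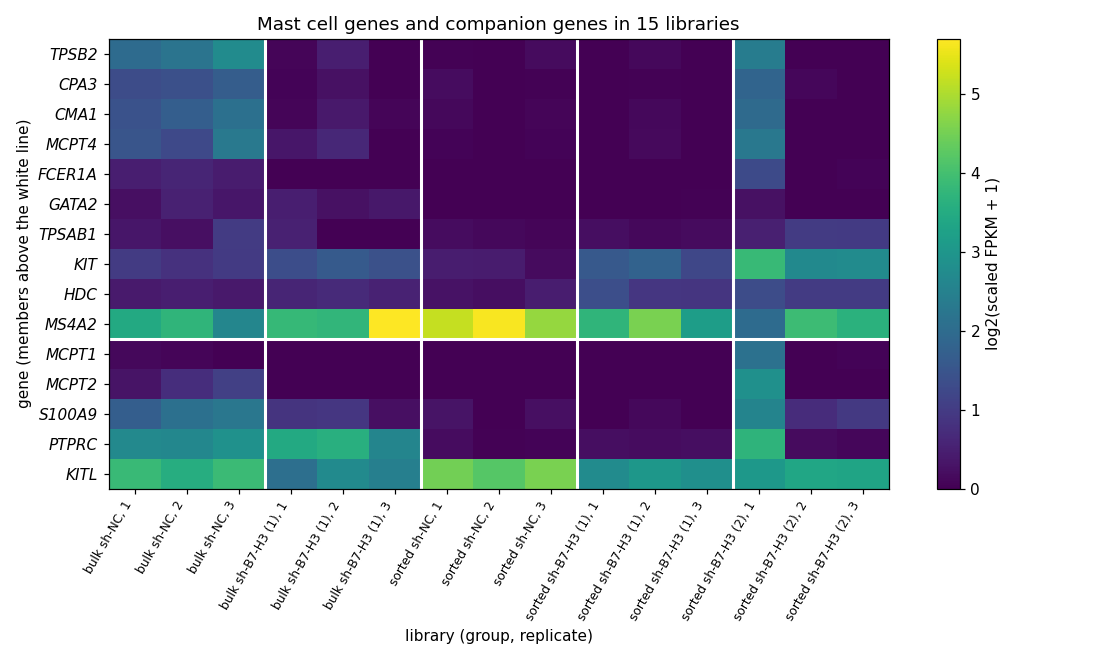
Heat map of log2(scaled FPKM + 1) for the 10 mast cell genes (above the horizontal white line) and 5 companion genes in 15 libraries, columns grouped by material and shRNA. The first 5 rows are brighter in the 3 bulk sh-NC columns and in sorted sh-B7-H3 (2) replicate 1 than in the other columns, and MS4A2 is brightest in sorted sh-NC and bulk sh-B7-H3 (1) replicate 3.

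**Figure D3:**
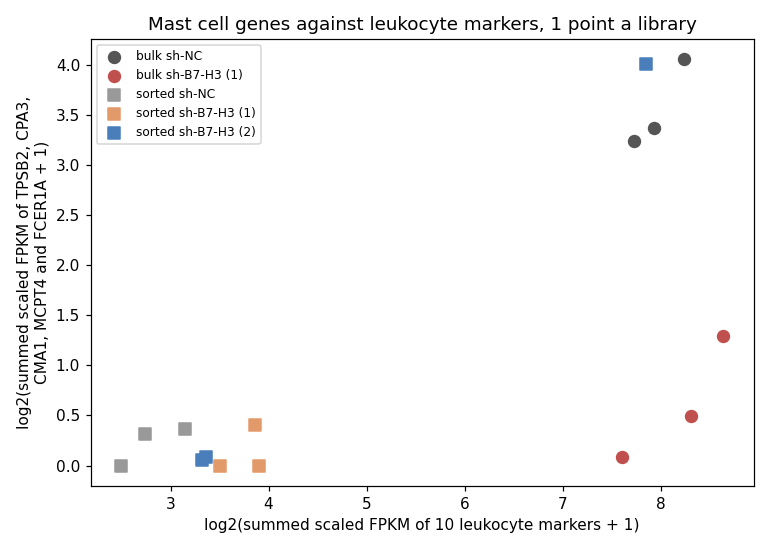
Each point is a library, with the log2 of its summed leukocyte markers plus 1 on x and the log2 of its summed TPSB2, CPA3, CMA1, MCPT4 and FCER1A plus 1 on y. Circles are bulk and squares sorted libraries. Bulk sh-NC and sorted sh-B7-H3 (2) replicate 1 lie at the top right, and bulk sh-B7-H3 (1) has an overlapping leukocyte range with low mast cell sums.

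KIT, HDC, TPSAB1 and MS4A2 were also found in sorted libraries with little leukocyte RNA and with the mast cell proteases at or near 0. KIT read 0.371, 0.362 and 0.121 with sh-NC, 2.00, 2.46 and 1.31 with sh-B7-H3 (1) and 13.4, 5.52 and 5.77 with sh-B7-H3 (2). No group overlapped another. KIT was under the filter in every sh-NC library and passed it only through the hairpin libraries, so its p comes from the fits without the filter. It was higher than sh-NC by 1.17 with sh-B7-H3 (1) (SE 0.17, adjusted p = 0.0103, limma) and by 2.75 with sh-B7-H3 (2) (SE 0.34, adjusted p = 0.00669, limma). In the fits with the filter, sh-B7-H3 (1) gave 9.03% of 11163 genes higher, 4.38% lower and 13.4% changed (1008 up and 489 down, against 1186 and 223 on FPKM as deposited). For sh-B7-H3 (2) these were 11.7% of 11243 genes higher, 7.44% lower and 19.1% changed (1313 up and 837 down, against 1608 and 325 as deposited). For these sorted comparisons, the shares of all genes called without the filter, or lying without overlap, are not reported here. Both KIT calls held in each of the 8 alternative settings in which KIT was tested, none of which leaves out a library with a B7-H3 hairpin. Without the leukocyte-containing library, the remaining sh-B7-H3 (2) values of 5.52 and 5.77 still lay above every sh-NC value.

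Between the hairpins, a comparison added after the values were seen, KIT was lower with sh-B7-H3 (1) than with sh-B7-H3 (2) by 1.58 on the log2 scale (95% interval −2.29 to −0.86, adjusted p = 0.0381, limma). In that fit 3.4% of 11239 genes changed, 1.76% higher and 1.64% lower. With the replicate number as a block, which paired these groups, the adjusted p was 0.0263, and 1864 genes changed instead of 382. Leaving out the leukocyte-containing library gave a difference of −1.20 (adjusted p = 0.00642, limma), and 6 of the 11 alternative settings lost the call, with adjusted p up to 0.124.

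HDC was also higher without overlap in both sorted groups labelled with a B7-H3 hairpin, going from 0.218, 0.152 and 0.375 with sh-NC to 1.58, 0.863 and 0.827 with sh-B7-H3 (1) and 1.51, 0.991 and 0.988 with sh-B7-H3 (2). It stayed under the filter on low values. Without that filter, the differences were 0.73 (SE 0.15, adjusted p = 0.0362, limma) and 0.79 (SE 0.12, adjusted p = 0.0141, limma), and the hairpins differed by −0.06 (SE 0.18, adjusted p = 0.877, limma). TPSAB1 was 0.142, 0.0941 and 0.0618 with sh-NC and 0.163, 0.0956 and 0.125 with sh-B7-H3 (1), overlapping. With sh-B7-H3 (2) it read 0.410, 0.999 and 0.963, above every sh-NC library, and its lowest value was in the library that held TPSB2. Without the filter TPSAB1 was higher there by 0.69 (SE 0.14, adjusted p = 0.0361, limma). The hairpins differed for TPSAB1 by −0.65 in the fit without the filter, which was not called (SE 0.14, adjusted p = 0.113, limma). For HDC and TPSAB1, the 2 other sh-B7-H3 (2) libraries also lay above every sh-NC library.

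By group mean, MS4A2 was the most abundant member in each of the 5 groups. In sorted cells it fell from 35.9, 49.2 and 26.8 with sh-NC to 12.3, 22.4 and 8.07 with sh-B7-H3 (1) and 3.01, 14.01 and 11.4 with sh-B7-H3 (2), with no overlap between sh-NC and either hairpin. The log2 differences were −1.40 (SE 0.35, adjusted p = 0.0344, limma) and −2.04 (SE 0.48, adjusted p = 0.0215, limma). Those calls came from the fits with the filter. The fits without it, used above for KIT, HDC and TPSAB1, called MS4A2 in neither comparison (adjusted p = 0.0919 and 0.072, limma). The first call was lost in 5 of 11 alternative settings, among them leaving out the second sh-NC library (adjusted p = 0.123), the first sh-B7-H3 (1) library (0.127) or the third (0.117). The second was lost in 2 of 11, with adjusted p of 0.089 without the second sh-NC library, and was −1.45 (adjusted p = 0.0134, limma) without the leukocyte-containing library. The hairpins were not separated, with a difference of 0.64 (95% interval −0.57 to 1.85, adjusted p = 0.515, limma). In the library that held the other mast cell genes, MS4A2 was at its lowest value of all 15. No whole step of 1 fragment was found for MS4A2 or KIT, unlike 8 members. The search tried only small divisors of a gene's lowest value. It could not find the step of a gene whose lowest library held many fragments, and nothing is read from this.

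Beyond the 10 members, the proteases of mucosal mast cells were examined. MCPT2 read 0.232, 0.689 and 1.10 in bulk sh-NC, was listed at 0 in all bulk and sorted sh-B7-H3 (1) libraries and in sorted sh-NC, and reached 6.28 in the first sorted sh-B7-H3 (2) library. MCPT1 was at most 0.0862 in bulk and 3.34 in that same library. There MCPT2 exceeded MCPT4 (3.86), whereas MCPT4 exceeded MCPT2 in each bulk sh-NC library. No gene of the 6 other mast cell proteases passed the filter in any of the comparisons, and MCPT9 was listed at 0 throughout.

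KITL, which encodes stem cell factor, was lower in all 3 comparisons of a B7-H3 hairpin with sh-NC. It read 13.5, 10.8 and 13.8 in bulk sh-NC against 3.25, 5.65 and 4.55 in bulk sh-B7-H3 (1), a log2 difference of −1.33 (SE 0.18, adjusted p = 0.00546, limma). Sorted cells with sh-NC had 21.6, 17.4 and 22.4, more than any other group, and sorted sh-B7-H3 (1) cells had 5.77, 7.05 and 6.18. That difference was −1.54 (SE 0.14, adjusted p = 0.000289, limma). In sorted sh-B7-H3 (2) cells KITL read 7.22, 9.32 and 9.12, a difference of −1.16 from sh-NC (SE 0.15, adjusted p = 0.00148, limma) that was −1.06 without the leukocyte-containing library. All 3 calls held in each of the 11 alternative settings. The soluble and membrane-bound forms of the ligand are not separated by these values.

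Other growth factor genes of mast cells were examined with KITL. Of the 11 genes of that list, 6 were tested in bulk, with CSF2RB higher and KITL lower, beside 12.8% higher and 8.52% lower of all genes. IL33, STAT5A and STAT5B were not called. CSF2RB, the shared β chain of the IL-3 and GM-CSF receptors, rose from 6.24 ± 0.480 to 11.49 ± 0.804 (log2 difference 0.79, SE 0.10, adjusted p = 0.00457, limma), a call lost on FPKM as deposited (adjusted p = 0.108). IL33, an alarmin that activates mast cells, was 1.35 ± 0.429 and 2.74 ± 0.801 in bulk (log2 difference 0.66, SE 0.21, adjusted p = 0.062, limma). In sorted cells it was called higher with sh-B7-H3 (2) than with sh-NC (log2 difference 0.566, adjusted p = 0.0321, limma), a call that 6 alternative settings lost. STAT5A and STAT5B differed by 0.20 and 0.04. IL3, IL4, IL9 and IL13 were listed at 0 in every bulk library. In sorted cells CSF2RB passed the filter only through the hairpin libraries. Without the filter it was higher by 1.18 with sh-B7-H3 (1) (adjusted p = 0.00231, limma) and by 1.86 with sh-B7-H3 (2) (adjusted p = 0.00175, limma).

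**Figure D4:**
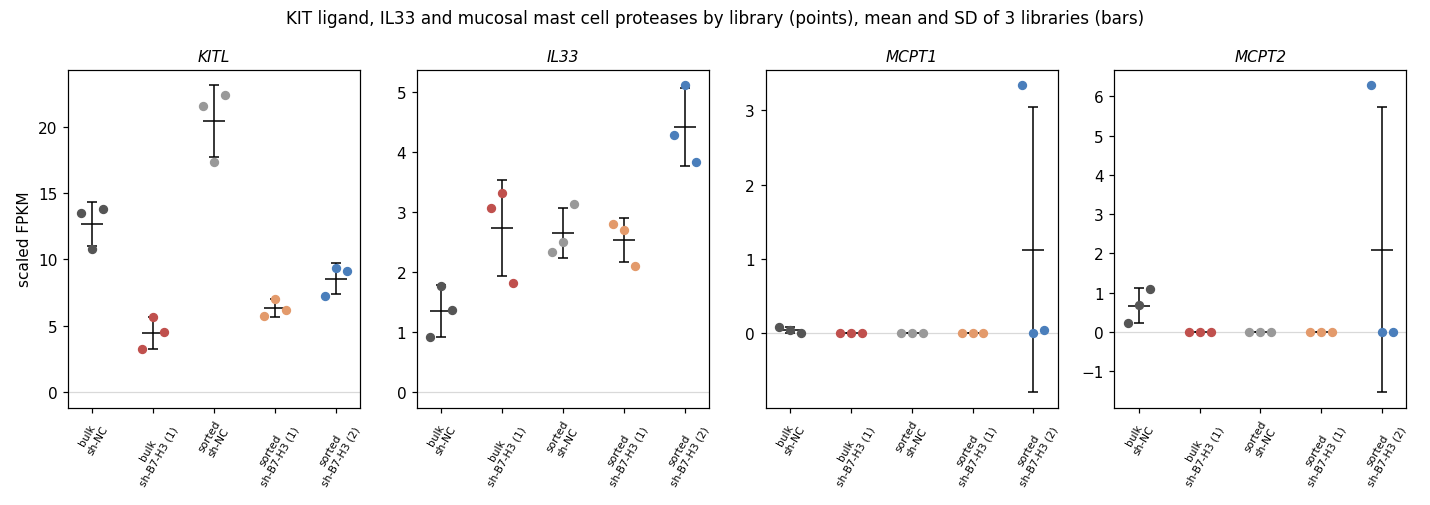
Scaled FPKM (y axes, linear) of KITL, IL33, MCPT1 and MCPT2 in the 15 libraries, grouped along x by material and shRNA, with the mean and SD of 3 libraries in black. KITL is lower in every library labelled sh-B7-H3 than in any sh-NC library of the same material, and MCPT1 and MCPT2 reach 3.34 and 6.28 in 1 sorted library.

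Downstream of FcεRI, no signaling gene was called lower in bulk. Of 13 signaling genes, 12 were tested in bulk, with 1 higher and 0 lower, shares of the list no larger than the 12.8% and 8.52% of all genes, and a median log2 difference of 0.32 beside 0.02 over all genes. PLCG2, a phospholipase that many immune cells share, was the gene that rose, from 9.06 ± 0.933 to 21.1 ± 4.55 (log2 difference 1.12, SE 0.17, adjusted p = 0.00744, limma). It was also higher in sorted cells, by 1.18 with sh-B7-H3 (1) (adjusted p = 0.011, limma) and 1.47 with sh-B7-H3 (2) (adjusted p = 0.00356, limma). The first of these was lost without the third sh-B7-H3 (1) library (adjusted p = 0.0546), and the second was 1.51 without the leukocyte-containing library (adjusted p = 0.0141). SYK was also called higher with sh-B7-H3 (2) in sorted cells (log2 difference 1.01, adjusted p = 0.0191, limma), where it read 5.05 in the leukocyte-containing library and 2.38 and 2.52 in the others, against 0.934 to 1.27 with sh-NC. FCER1G, the signaling γ chain that macrophages also carry, was 104.4 ± 19.2 and 138.1 ± 28.7 (log2 difference 0.39, adjusted p = 0.176, limma). The kinases LYN, SYK, FYN and BTK and the adaptors and enzymes LAT2, LCP2, PLCG1, GAB2, VAV1 and INPP5D differed by between −0.15 (LYN) and 0.40 (LCP2) without a call, and LAT did not pass the filter (0.330 ± 0.111 and 1.27 ± 0.780).

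Of 12 granule and mediator genes, 8 were tested in bulk, with 1 higher and 1 lower. These shares are near the 12.8% higher and 8.52% lower of all genes. PTGS1, the constitutive cyclooxygenase, fell from 75.35 ± 2.49 to 48.7 ± 2.99 (log2 difference −0.62, SE 0.09, adjusted p = 0.00596, limma), a call lost on the FPKM as deposited (adjusted p = 0.341). RAB27B, which docks secretory granules, rose from 2.27 ± 0.578 to 10.8 ± 3.11 (log2 difference 1.82, SE 0.22, adjusted p = 0.0044, limma), and was higher in sorted cells too, by 1.62 and 1.64 with the respective hairpins (adjusted p = 0.000419 and 0.000704, limma). The latter was 1.45 without the leukocyte-containing library (adjusted p = 0.00135). HPGDS, LTC4S, ALOX5AP, SRGN and NDST2 were not called, with log2 differences from −0.60 (LTC4S) to 0.30 (HPGDS). ALOX5, of leukotriene synthesis, did not pass the filter (1.01 ± 0.393 and 0.3999 ± 0.365).

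Among 10 surface genes 3 were tested in bulk. CD200R3, an activating receptor of mast cells and basophils, rose from 0.824 ± 0.279 to 4.41 ± 1.53 (log2 difference 1.54, adjusted p = 0.0208 without the filter, limma). In sorted cells it passed the filter only through the hairpin libraries, and without the filter it was higher by 0.99 with sh-B7-H3 (1) (adjusted p = 0.0332, limma) and 2.21 with sh-B7-H3 (2) (adjusted p = 0.00593, limma). The filtered fit with a replicate block did not call the first of these (adjusted p = 0.0501, limma). For CSF2RB and CD200R3, every sh-B7-H3 (2) library lay above every sorted sh-NC library. CYSLTR1, a receptor for cysteinyl leukotrienes, was higher by 0.69 in bulk (SE 0.16, adjusted p = 0.028, limma), a call that 7 of the alternatives lost, while CD63, a granule membrane protein found in many cells, was not called (−0.34, adjusted p = 0.071, limma). IL1RL1, the IL-33 receptor, was 0.998, 9.86 and 10.2 in the sorted sh-B7-H3 (2) libraries and at most 0.479 in all others, so its high values were in the libraries of that group with little leukocyte RNA. The mast cell transcription factors MITF, RUNX1, LMO2, LYL1 and ZEB2 were tested, and none of them was called, with log2 differences from 0.04 (RUNX1) to 0.46 (LYL1). GATA1 was listed at 0 in every bulk library.

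Markers of other cell types are given for the same bulk comparison, in which 12.8% of all genes were higher and 8.52% lower. The sum of 8 neutrophil markers was 5.47 to 11.2 in sh-NC and 2.10 to 3.66 in sh-B7-H3 (1), and rested on S100A8 (4.61 ± 2.02 and 1.05 ± 0.137) and S100A9 (3.13 ± 0.810 and 0.624 ± 0.388). CSF3R, the G-CSF receptor of neutrophils, went the other way (0.789 ± 0.185 and 1.27 ± 0.462), while CXCR2 and LY6G were under 0.1 on average in both groups and NGP and CAMP were listed at 0 in every bulk library. The sums of 9 T cell markers were 3.09 to 3.26 against 7.16 to 22.7, with CD3E at 0.395 ± 0.168 and 4.01 ± 2.12 and CD3G at 0.370 ± 0.122 and 3.82 ± 1.79. The neutrophil and T cell genes tested, 2 in each list, passed the filter largely through their high group, so no count of calls is given for these lists. Basophil markers summed to 3.47 to 4.02 and 4.51 to 10.96, with MCPT8 at 0.0615 ± 0.0644 and 0.433 ± 0.257 and PRSS34 listed at 0 in sh-B7-H3 (1). Leukocyte markers gave 1 of 10 higher (PTPN6), macrophage markers 1 higher (CD68) and 1 lower (MSR1) of 9, and endothelial markers 1 of 9 lower (CLDN5). Skeletal muscle markers summed to 2.53 to 22.0 against 38.2 to 805.4. Genes such as CKM (0.1665 ± 0.2045 and 33.18 ± 39.91) passed the filter largely through the sh-B7-H3 (1) libraries, so their count of calls is left out too. Fibroblast markers gave 5 higher and 1 lower of 9. Epithelial and renal tumor markers gave 3 of 8 higher, smooth muscle markers 2 of 4, keratinocyte markers 1 of 2, Schwann cell markers 1 of 1 and adipocyte markers 0 of 6, with 0 lower in each, and no melanocyte marker was tested. The part of these cell types, of depth and of MIR6236 in the mast cell difference was not tested.

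To see which genes resembled the pair that chose the set, each of 12884 genes was correlated with the mean log2 of TPSB2 and CPA3 over the 15 libraries, which share material and groups. This is a description with no p. CMA1 (r = 0.999) and MCPT4 (r = 0.976) came before any gene outside the set, and FCER1A ranked 11 (r = 0.871). TPSAB1 ranked 3215, KIT 4809, HDC 7328 and MS4A2 12744 (r = −0.656), and GATA2 never reached 1 scaled FPKM and was not compared. The closest other genes were the myeloid genes TREM1 (r = 0.940), S100A9 (0.935), CLEC4E (0.913) and S100A8 (0.911), followed by C1QTNF9 (0.904), CHIL3 (0.879), DFFB (0.870), LTB4R1 (0.868), PPP2CB (0.863) and MED29 (0.854). CHIL3 ranked 4 (r = 0.989) when the leukocyte-containing sorted library was left out. It read 1.69, 2.48 and 3.92 in bulk sh-NC and 0.4997 in that library. Among themselves the 5 members lower in bulk had correlations of 0.847 to 0.998 over 10 pairs, and against the other 5 of −0.710 to 0.586 over 25 pairs.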

How the data were processed

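RNA was sequenced from 15 libraries (3 in each of 5 groups) after oligo-dT capture, with single-end reads of 75 cycles. The authors deposited FPKM values per gene, in a table whose name says counts; the mm10 build comes from the submitters' processing notes, and the aligner, counter, annotation and strand setting are not given in the sources used here. The labels and the study name different library kits. A second deposited table, on a log2 scale, holds a subset of the genes and was not used. Date-like symbols (26 of 24917 entries) were dropped. Each library's FPKM were then scaled by a median-ratio factor from the 9872 genes that reached 1 FPKM everywhere. Genes with 1 scaled FPKM or more in at least 3 libraries of a comparison were tested on log2(scaled FPKM + 1) with limma 3.58.1 (trend, R 4.3.3), two-sided, Benjamini-Hochberg adjusted over all genes tested, threshold 0.05. The fit was tested on simulated data. The members, the lists and the split of 5 and 5 were chosen with earlier results of these data known. Named genes were the members, companion genes reaching a mean of 1 in a bulk group, up to 3 genes per other list, and the 10 most alike, and some companion genes that met this rule are not reported here. MCPT1, MCPT2, MCPT9, MCPT8, PRSS34, PTPN6, CAMP, NGP, PTPRC, IL1RL1, CSF3R, CXCR2, LY6G and the companion genes under a mean of 1 were named after their values were seen. Same-numbered libraries deviated together only for sorted sh-B7-H3 (1) and (2) (r = 0.514, 0.431 and 0.443). Replicates correlated at 0.955 to 0.995. Nothing links libraries of a number to shared animals, and p-values measure the spread between 3 tumors called biological samples. Absolute depth is unknown. Alternatives were unscaled FPKM, a pseudocount of 0.1, no filter, a replicate block, all groups in 1 fit and leaving out each library. RefSeq promoters (GRCm38.p6) and GENCODE M21 positions gave the sequences.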

Additional observations from a re-analysis of the deposited data

Results flagged for a closer look

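On scaled FPKM, MS4A2 stood in opposite directions under the same hairpin. It was higher in every bulk library labelled sh-B7-H3 (1) than in any bulk sh-NC library, and lower in every sorted library labelled sh-B7-H3 (1) than in any sorted sh-NC library. The log2 effect in bulk exceeded that in sorted cells by 2.55. The difference between the 2 effects was not tested. The bulk effect was 0.52 without the third bulk sh-B7-H3 (1) library, which read 51.1 scaled FPKM beside 13.2 and 12.5.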

How the results depend on the processing

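No called result reversed. Among the members' values, 133 stayed the same, 7 without a test moved beyond the spread and 14 lost a call. Tested values counted as the same if they kept their direction and side of the threshold. Values without a test did if they kept their direction and stayed within the spread. The cause was not tested. Genes changed in bulk numbered 2520, and 961 on FPKM as deposited, 1413 with the replicate block and 546 to 3793 leaving out 1 library. For sorted sh-B7-H3 (1) against sh-NC, 1497 became 915 with the replicate block and 722 to 1948 leaving out a library. For sh-B7-H3 (2), 2150 became 1395 with the block and 962 to 3614, with 1357 without the leukocyte-containing library. Bulk against sorted sh-NC gave 1924, then 652 as deposited, 3082 with all groups in 1 fit, 1998 with the block and 139 to 4436, the highest without the first sorted sh-NC library. The hairpins differed in 382 genes, 137 without the filter, 1864 with the block and 35 to 890. FPKM as deposited moved the median of all genes to 0.17 and 0.21 in the sorted comparisons with sh-NC. CD276 in sorted sh-B7-H3 (1) passed the threshold as deposited (-0.8562) and with all groups in 1 fit (-1.038), and ranged from -1.2278 to -0.759 leaving out a library, where the lowest, without the third sorted sh-NC library, also passed it. In sh-B7-H3 (2) that range was -0.0711 to 0.3977, and the highest, without the first sh-NC library, passed it. Same-numbered libraries did not all deviate together outside the sorted hairpin groups (r from -0.662 to 0.361), so the block there is no pairing, and a call lost under it is not read as a weaker effect. Leaving out a single library moved each count by over 1.5 times, except sorted sh-NC replicates 1 and 3 for sorted sh-B7-H3 (1), and the third sorted sh-NC library for sorted sh-B7-H3 (2) and for bulk against sorted. Genes of a few fragments, such as FCER1A, are limited by depth.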
